A study of Mus musculus with 2 samples.

Results

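Egr1, Egr2, Egr3, Nab1, Nab2, Nr4a1, Nr4a2 and Nr4a3 are 8 genes of immediate-early transcription control, chosen by symbol, and they were 8 of 55536 annotated genes and 8 of 22028 protein-coding genes in the tables. They were measured in mouse bone marrow-derived macrophages, primary cells of the C57BL/6J strain, after 30 min in Lipid A at 100 ng/ml. Lipid A is the membrane anchor of bacterial lipopolysaccharide and a ligand of the receptor TLR4. RNA of the nucleoplasmic fraction, which other labels call nuclear, was depleted of ribosomal RNA and sequenced as total RNA in 1 group of 2 libraries, biological replicates 1 and 2. Replicate 1 started from 1 µg of RNA and replicate 2 from 500 ng, 1 donor entry is cited for the pair, and sex and age were not collected. The labels do not say whether the cells were cultured separately, so differences between the libraries may be technical. An unstimulated sample was not analysed here, so every value is a level under Lipid A and says nothing of induction.

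Immediate-early genes are transcribed within minutes of a signal, without new protein synthesis, and many encode transcription factors. EGR proteins are zinc-finger activators of GC-rich sites, and NAB proteins are corepressors that bind EGR proteins. NR4A proteins are orphan nuclear receptors whose activity is set largely by their amount. In macrophages, Toll-like receptor signals reach these genes through MAP kinases, serum response factor with its Ets partners, and CREB. NR4A receptors are known there for restraining inflammatory gene expression.

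The libraries held 16037242 expected counts, reads assigned to genes with fractions where the assignment is shared, in replicate 1 and 14906686 in replicate 2. Macrophage markers were detected throughout: 8 of 8 reached 1 TPM, a share of transcripts corrected for their length, in each library, with summed TPM of 3025 and 3706. By mean level, Lyz2 (1465 and 2295 TPM) and Csf1r (599 and 540 TPM) were the highest and Fcgr1 (25.4 and 24.2 TPM) the lowest. Of 26 markers of 7 other cell types, S100a9 alone did so, at 1.24 and 1.09 TPM, and the 26 summed to 2.79 and 4.16 TPM. The 4 T cell and 3 erythroid markers had 0 reads in the gene table, which allows up to 3 counts or 1.87e-05% of replicate 1, although a second transcript table listed Cd3d at 4.02 and 3.37 TPM. Intervals and such limits cover counting error only. In bulk RNA, a smaller share of cells that express a gene and less RNA per cell cannot be told apart.

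All 8 genes were detected, with 1 TPM or more in each library, where 42.4% of the 22028 protein-coding genes were. Their mean levels ran from 4.21 to 289 TPM. Their median mean level was 19.1 TPM, and that of the 9783 protein-coding genes whose mean reached 1 TPM was 7.995. The family sums were 420 and 387 TPM for the 3 Egr genes, 35.2 and 16.3 TPM for the 2 Nab genes, and 251 and 347 TPM for the 3 Nr4a genes. A single gene carried most of the Nr4a sum, since Nr4a1 made up 96.6% of it in replicate 1 and 96.7% in replicate 2.

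Egr1, on chromosome 18 (ENSMUSG00000038418.7), encodes the founding EGR factor, also known as Zif268. It had 13659 and 18872 expected counts in replicates 1 and 2, or 267 and 303 TPM (mean 285 ± 25.5, SD, n = 2). Its share of all counts was 0.0852% in replicate 1 (0.0838 to 0.0866%, 95% Wilson interval) and 0.127% in replicate 2 (0.125 to 0.128%). By mean TPM it stood at rank 99 of 9783 protein-coding genes.

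Egr2, known as Krox20 and for its role in myelin formation, lies on the plus strand at chr10:67535475-67542188 (mm10, GENCODE M21, ENSMUSG00000037868.15). It had 5874 and 3746 expected counts, or 128 and 66.3 TPM (mean 97.1 ± 43.5, SD, n = 2), rank 409. Its level in replicate 1 was the higher one, the reverse of Egr1. Within a library, Egr1 TPM was 2.09 times that of Egr2 in replicate 1 and 4.57 times in replicate 2, so Egr1 stood above Egr2 in both, by a factor that differed more than 2-fold between them.

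Egr3, an EGR factor with roles in muscle spindles and lymphocytes, lies on the plus strand at chr14:70077203-70082614 (ENSMUSG00000033730.4). It had 1513 and 1338 expected counts, or 24.9 and 17.4 TPM (mean 21.2 ± 5.33, SD, n = 2), rank 2370. Egr1 exceeded it 10.7-fold and 17.4-fold. The Egr genes thus kept the order Egr1, Egr2, Egr3 in both libraries, and the ranges of neighbours in that order did not overlap. The remaining family member, Egr4, had 5 and 12 reads, or 0.15 and 0.30 TPM.

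Nab1 lies on the minus strand at chr1:52457294-52500679 (ENSMUSG00000002881.14) and encodes a corepressor that binds EGR proteins. It had 935 and 676 expected counts, or 24.2 and 9.77 TPM (mean 17.0 ± 10.2, SD, n = 2), rank 2871. Its TPM differed more between the libraries than its counts did, and its deposited effective length, averaged over its transcripts, was 2258 bases in replicate 1 and 3318 bases in replicate 2. The Nab1 range overlapped that of Egr3.

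Nab2, the second EGR corepressor, lies on the minus strand at chr10:127660918-127668568 (ENSMUSG00000025402.12). It had 374 and 291 expected counts, or 11.0 and 6.49 TPM (mean 8.73 ± 3.17, SD, n = 2), rank 4635. Egr1 exceeded it 24.3-fold and 46.7-fold, and Egr2 11.7-fold and 10.2-fold. Within each library all 3 Egr genes stood above both corepressor genes, by a narrow margin for Egr3 over Nab1 in replicate 1, at 24.9 and 24.2 TPM.

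Nab2 was the one gene of the 8 to overlap other annotated genes, all 3 on the opposite strand. Stat6, a transcription factor of interleukin-4 signalling, shared 40 bp with it and had 95.1 and 57.3 TPM. The antisense gene Gm16229 shared 1646 bp and had 31.9 and 16.4 expected counts. Nemp1, a nuclear envelope protein gene, shared 1668 bp and had 181 and 197 expected counts. Of the 2926 distinct 31-base words in Nab2 transcripts, 1110 (37.9%) also occurred in transcripts of other genes on either strand. Use of strand in counting was not given in the sources used here. Nab2 levels are therefore uncertain. The same share was 6.41% for Nab1 and at most 0.452% for each of the other 6 genes. These shares leave out words found in others of the 8 genes, which came to at most 14 for each gene.

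Nr4a1, known as Nur77, lies on the plus strand at chr15:101254269-101274795 (ENSMUSG00000023034.7). It had 7100 and 11222 expected counts, or 242 and 335 TPM (mean 289 ± 65.9, SD, n = 2), rank 96. Its range contained that of Egr1, so the 2 highest genes of the set were not separate in the gene table. Egr1 TPM was 1.10 times that of Nr4a1 in replicate 1 and 0.904 times in replicate 2.

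Nr4a2, known as Nurr1 and required for midbrain dopamine neurons, lies on the minus strand at chr2:57106830-57124003 (ENSMUSG00000026826.13). It had 128 and 291 expected counts, or 2.73 and 5.68 TPM (mean 4.21 ± 2.09, SD, n = 2), rank 6773. By this TPM it was the lowest of the 8 genes and stood 88.7-fold and 59.1-fold below Nr4a1, and by 38.4-fold and 34.7-fold in the second transcript table. The deposited posterior mean TPM of Nr4a2 was 7.70 and 8.25, above that of Nr4a3 at 5.54 and 5.74. The library ratio of these Nr4a2 means was 0.10 on the log2 scale. Its deposited credibility bounds, of unstated level, were 2.39 to 17.6 TPM and 4.86 to 13.8 TPM, and they overlap. The place of Nr4a2 below Nr4a3 therefore depends on the estimate used.

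Nr4a3, known as Nor1, lies on the plus strand at chr4:48045153-48086447 (ENSMUSG00000028341.9). It had 248 and 401 expected counts, or 5.72 and 5.88 TPM (mean 5.80 ± 0.11, SD, n = 2), rank 5833. The TPM values were close although the counts differed, and its effective length was 2531 and 3268 bases. Nr4a1 exceeded it 42.4-fold and 57.0-fold.

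By mean TPM the order was Nr4a1, Egr1, Egr2, Egr3, Nab1, Nab2, Nr4a3, Nr4a2. Neighbours whose ranges overlapped were Nr4a1 and Egr1, Egr3 and Nab1, and Nab1 and Nab2. Nr4a3 and Nr4a2 were separate by a narrow margin, at a lowest value of 5.72 TPM and a highest of 5.68 TPM.

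**Figure D1:**
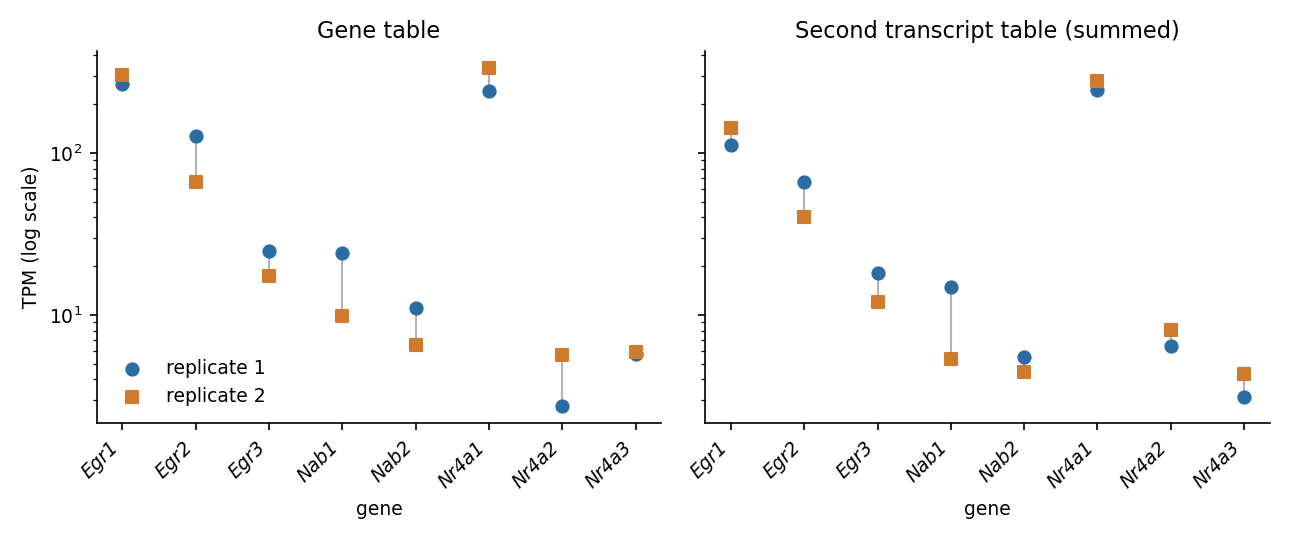
TPM on a log scale for each gene in replicate 1 (circles) and replicate 2 (squares), in the gene table and in the second transcript table. Nr4a1 and Egr1 lie within 242 to 335 TPM in the gene table and apart in the second table, where Egr1 is at 112 and 143 TPM.

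The second transcript table, made from the reads directly, kept the first 5 places by mean TPM and changed the order of the last 3. Nr4a1 had 245 and 278 TPM there and Egr1 112 and 143 TPM, so these genes no longer overlapped. Of these Nr4a1 values, 142 and 135 TPM came from Nr4a1-203, a transcript of 344 bases. The separation of Nr4a1 from Egr1 depends on that transcript. Over 9764 protein-coding genes, the median ratio of second-table to gene-table TPM was 0.577 and 0.579. The ratio was 0.418 and 0.472 for Egr1, 1.01 and 0.828 for Nr4a1, and 2.34 and 1.41 for Nr4a2. Nr4a2, at 6.38 and 8.01 TPM, then stood above both Nab2 (5.52 and 4.44 TPM) and Nr4a3 (3.11 and 4.33 TPM). The order Egr1, Egr2, Egr3 and the place of Nr4a1 as first of its family held in both tables.

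The ratio of replicate 2 to replicate 1 compares these libraries and no conditions. It was taken on expected counts scaled by TMM, for genes that averaged 50 counts or more. On the log2 scale it was 0.53 for Egr1, -0.58 for Egr2, -0.11 for Egr3, -0.40 for Nab1 and -0.30 for Nab2. It was 0.73 for Nr4a1, 1.25 for Nr4a2 and 0.76 for Nr4a3. The 3 Nr4a genes and Egr1 were higher in replicate 2, and Egr2, Egr3 and both Nab genes were lower.

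Of the 8 genes, 1 lay beyond 2-fold, where 9.02% of 10448 genes did. That gene was Nr4a2, 2.38-fold higher in replicate 2 and above 97.8% of all genes by counts, while its posterior mean TPM differed by 0.10 on the log2 scale. The members' median was 0.21 and that of all genes -0.03. Of the 8, 4 lay above 0, and 47.6% of all genes did. Among all genes, 545 (5.22%) were higher and 397 (3.8%) lower beyond 2-fold. With library size alone the split was 586 and 365, and with DESeq2 size factors over genes averaging 50 counts or more it was 594 and 357. With DESeq2 size factors over all genes with counts in both libraries, which came out at exactly 1, it was 430 and 490. On the ratio of TPM it was 191 and 1586.

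On the TPM scale, which shifts the median of all genes to -0.44, the log2 ratio was -1.31 for Nab1 and 1.06 for Nr4a2. Relative to that median the values were -0.87 and 1.49, with 0.62 for Egr1, -0.51 for Egr2, 0.91 for Nr4a1 and 0.48 for Nr4a3. In the second transcript table the TMM-scaled ratio was 1.46 for Nr4a2 and 0.01 for Egr3, the one change of sign in 40 values. There, 9.3% of 16369 genes lay beyond 2-fold.

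Values that moved with the libraries stand beside these ratios, and their part in them was not tested. The 8 macrophage markers had a median log2 ratio of 0.23, with 1.03 for Lyz2, which encodes lysozyme, -0.08 for Csf1r, the receptor of the growth factor M-CSF, and 0.40 for the Fc receptor gene Fcgr1. Mertk, outside the naming rule and chosen after its value was seen, was at -0.35. Across 9000 protein-coding genes the ratio had a Spearman's rho of -0.32 with genomic span, given as a description of genes that share the same libraries. Nab1 and Nr4a3, the longest of the 8 genes, span 43.4 and 41.3 kb and had ratios of -0.40 and 0.76, which do not bear on a correlation over 9000 genes.

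**Figure D2:**
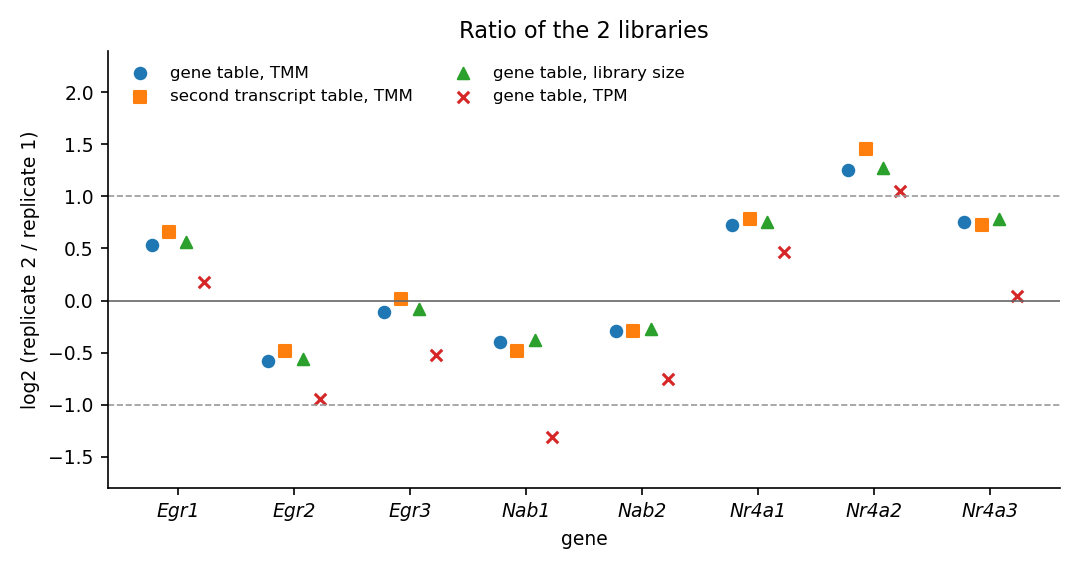
Log2 ratio of replicate 2 to replicate 1 for each gene with TMM, library size alone, TPM and TMM on the second transcript table, with 0 marking equal levels and dashed lines at 2-fold. Nr4a2 is the highest gene under each scaling shown, at 1.25 with TMM, and the lowest is Egr2 with TMM, at -0.58, and Nab1 on the ratio of TPM, at -1.31, and, beside Egr2 at -0.48, in the second table, at -0.49.

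Transcript shares come from the percent of a gene's TPM that the deposited first transcript table gives each transcript. Egr1 was split between 2 coding transcripts, with 87.5% and 89.3% in Egr1-202. The other, Egr1-201, has 1448 bases of its own in its 4484 and held 2434 and 2887 expected counts. Egr2-201 had 81.5% and 81.9%, and Egr2-203 had 16.8% and 17.0%. The other transcripts of Egr2 contributed little in the first table, where 4 of its 7 had 0 expected counts in both libraries. In the second table Egr2-201 had 50.5% and 53.5% and Egr2-203 had 32.0% and 22.6%. Egr2-204, of 427 bases and at 0 in the first table, had 16.2% and 23.5% there, so the Egr2 shares depend on the table. These leading transcripts of Egr1 and Egr2 were the same in both libraries and both transcript tables.

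Egr3 was divided between Egr3-202, annotated as retained intron, with 51.5% and 44.1%, and the coding Egr3-204, with 43.1% and 55.3%, in the first table. In the second, Egr3-202 had 36.3% and 46.7%, Egr3-204 had 16.5% and 16.9%, and the non-coding Egr3-203, of 489 bases and at 0 in the first table, had 35.8% and 18.2%. The Egr3-202 model spans 3876 bases, of which 221 lie outside coding transcripts, so few bases separate it from Egr3-204. It held 802 and 587 expected counts. Nr4a1-204, the retained-intron model of Nr4a1, had 20.5% and 26.0% of TPM. It has 654 intronic bases in its 893 and held 565 and 1250 expected counts, 7.95% and 11.1% of the gene's counts. Among the 8 genes it rests on the most intronic sequence.

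The intron edges in the Nr4a1 and Nab1 models are shown because they are the bases that tell such RNA from spliced RNA. Each is 60 bases of mm10 on the gene's strand, with exon in capitals and the intron that the model keeps in lower case. All 30 exon bases are coding in each. Nr4a1-204 is read at the start of its intron, chr15:101273164-101273223, plus strand. Nab1-202 is read at the end of its intron, chr1:52466950-52467009, minus strand.
Nr4a1-204: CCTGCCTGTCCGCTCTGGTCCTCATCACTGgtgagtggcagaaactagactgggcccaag
Nab1-202: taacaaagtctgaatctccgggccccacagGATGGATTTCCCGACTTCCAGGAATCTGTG

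Retained-intron models held a mean of 47.8 ± 5.27% of TPM for Egr3, 23.2 ± 3.86% for Nr4a1 and 11.8 ± 5.08% for Nab1 (SD, n = 2). The other 5 genes have no such model in the annotation. These are shares of annotated models in nucleoplasmic RNA, and retained introns were not told apart from RNA not yet spliced. Over 4397 protein-coding genes with a retained-intron model and a mean of 5 TPM or more, the median was 26.8%, with quartiles of 13.9 and 41.0%. In the first table Egr3 thus lay above the upper quartile, Nr4a1 between the quartiles and Nab1 below the lower one. In the second table the means were 41.5% for Egr3, 13.7% for Nr4a1 and 20.8% for Nab1, so the order of Nr4a1 and Nab1 depends on the table. The Nab1 share in the first table rests on 18.1 and 5.18 expected counts in Nab1-202, a model with 78 intronic bases.

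Nab1 transcripts differed most between the libraries. Nab1-201 had 42.3% and 59.7%, and Nab1-205 had 8.34% and 32.1%. Nab1-204, a shorter coding transcript with no base of its own, had 33.98% from 161 expected counts in replicate 1 and 0 counts in replicate 2, where 0 allows up to 3. Nab2 was shared between Nab2-202, with 49.5% and 47.9%, and Nab2-201, with 40.1% and 47.6%.

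Coding transcripts of Nr4a2 held 46.1 ± 8.71% of TPM and those of Nr4a3 46.7 ± 12.2% (SD, n = 2), where the median over 6258 protein-coding genes with a mean of 5 TPM or more, a level Nr4a2 did not reach, was 71.4%. By expected counts the coding share was 61.5% and 52.6% for Nr4a2 and 79.2% and 89.1% for Nr4a3. In the second table it was 13.6% and 24.8% of TPM for Nr4a2 and 45.1% and 42.3% for Nr4a3, so neither share is settled by these tables. For Nr4a2 the leading transcript in the first table was the coding Nr4a2-203, with 37.7% and 33.0%. Nr4a2-206, annotated for nonsense-mediated decay, followed with 31.6% and 31%. For Nr4a3 the first table was led by Nr4a3-204, a transcript without a coding annotation, in replicate 1 (33.0%). The coding Nr4a3-201 led in replicate 2 (34.7%). By expected counts, Nr4a3-201 led in both libraries, with 134 and 235. In the second table Nr4a2-203 had only 0.34% and 13.3% of TPM. Nr4a3-204 led there in both libraries, with 38.3% and 51.3%.

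The tables disagreed most on short transcripts. Nr4a2-204, of 182 bases and an effective length of 11.1 and 16.7 bases, had 0 reads in the first table. In the second it took 76.6% and 56.8% of Nr4a2 TPM from 8 and 16 estimated counts. Nr4a1-203, of 344 bases, had 9.93% and 12.04% in the first table and 57.9% and 48.7% in the second, from 850 and 1645 estimated counts. The second-table TPM of Nr4a1 and Nr4a2 above therefore include large contributions from these models.

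**Figure D3:**
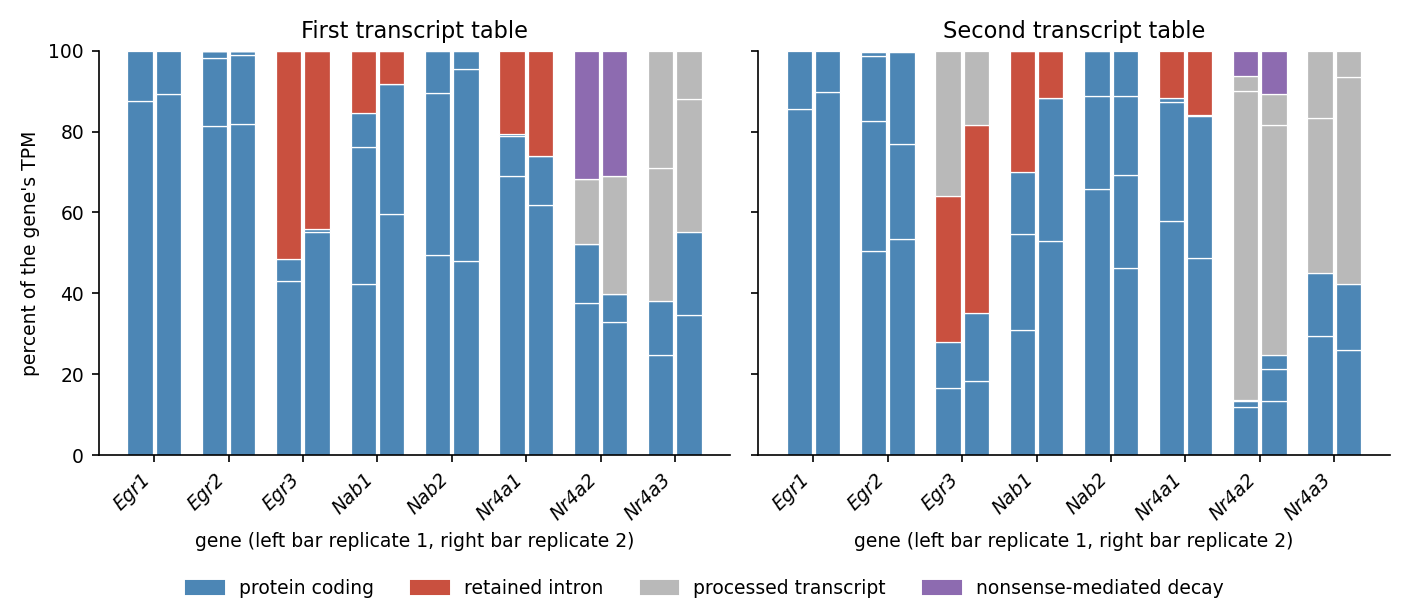
Percent of each gene's TPM by annotated transcript type in the first and second transcript tables, with a left bar for replicate 1 and a right bar for replicate 2. Egr3 has the largest retained-intron share in the first table, 51.5% and 44.1%. Egr1, Egr2 and Nab2 have coding models only in the annotation, so their bars are wholly coding by definition.

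Promoter windows, from 250 bases before to 50 bases after each RefSeq start (GRCm38.p6), were given for 6 of the 8 genes and for 27025 genes in all. No window was found for Egr1 and Egr3. The CRE core, TGACG on either strand, is the sequence that CREB and related factors bind. It occurred 4 times in the window of each of Nr4a1, Nr4a2 and Nr4a3. Of 32851 windows, 20.8% held at least 1 copy and 76 windows, 0.231%, held 4 or more. The limit of 4 equals the count in the Nr4a windows, which are among the 76. GC content was 72.3% in the window of Nr4a1, 81.7% in that of Nr4a2 and 64.7% in that of Nr4a3. The median over all windows was 52.7%, and windows of like GC content were not compared. A match is a description of the letters, not a bound site.

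The stretches with these matches are shown because the Nr4a genes share them and Egr2 carries them beside a CArG box, the site of serum response factor. Capitals mark TGACG or its reverse complement CGTCA and, for Egr2, also the CArG box, and each stretch lies outside annotated exons. They are chr15:101266598-101266825 (plus strand) for Nr4a1, chr2:57124095-57124218 (minus strand) for Nr4a2, chr4:48045059-48045119 (plus strand) for Nr4a3, with 3 of its 4 matches, and chr10:67537743-67537833 (plus strand) for Egr2.
Nr4a1: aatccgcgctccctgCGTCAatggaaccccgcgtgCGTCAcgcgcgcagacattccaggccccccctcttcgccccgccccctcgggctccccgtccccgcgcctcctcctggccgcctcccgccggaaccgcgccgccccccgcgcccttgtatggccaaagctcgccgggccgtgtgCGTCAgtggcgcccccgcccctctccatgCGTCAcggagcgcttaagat
Nr4a2: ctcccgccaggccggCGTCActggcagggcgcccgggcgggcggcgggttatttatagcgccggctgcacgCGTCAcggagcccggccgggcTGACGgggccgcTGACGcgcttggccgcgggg
Nr4a3: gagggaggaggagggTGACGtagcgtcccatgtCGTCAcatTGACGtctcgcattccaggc
Egr2: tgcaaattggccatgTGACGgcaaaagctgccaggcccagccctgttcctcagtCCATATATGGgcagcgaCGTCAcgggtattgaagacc

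The Egr2 stretch comes from the third of its 5 RefSeq starts, whose window held 2 CRE cores and the CArG box. A CArG box occurred in 1.63% of all windows. The EGR site GCGNGGGCG, searched on both strands, occurred 3 times in the Nab1 window and once in those of Nr4a1 and Nr4a2, and in 5.55% of all windows. The windows of Nab2, Nr4a3 and Egr2 held none. The Nab1 window has a GC content of 81.7%. The TATA box TATAAA, searched on both strands, occurred in the Nr4a2 window alone of the 6 genes and in 13.6% of all windows. The Nr4a2 match lies at -164 to -159 bases from the start, on the strand opposite to the gene. The Ets core CCGGAA had 3 matches in the window of the second Egr2 start. Of these, 2 overlapped, at -131 to -126 and -129 to -124 bases from that start. This window also held a CArG box, a different site from the one printed above. The Ets core occurred once in the Nr4a1 window and in 14.9% of all windows. The Sp1 box GGGCGG, which overlaps EGR sites, occurred in 35.7%. The NF-kB consensus occurred in the windows of Nab1, Nr4a1 and the first Egr2 start, and in 8.46% of all windows. The full CRE TGACGTCA and the NR4A site AAAGGTCA were in no window of the 6 genes and in 1.79% and 1.51% of all windows.

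**Figure D4:**
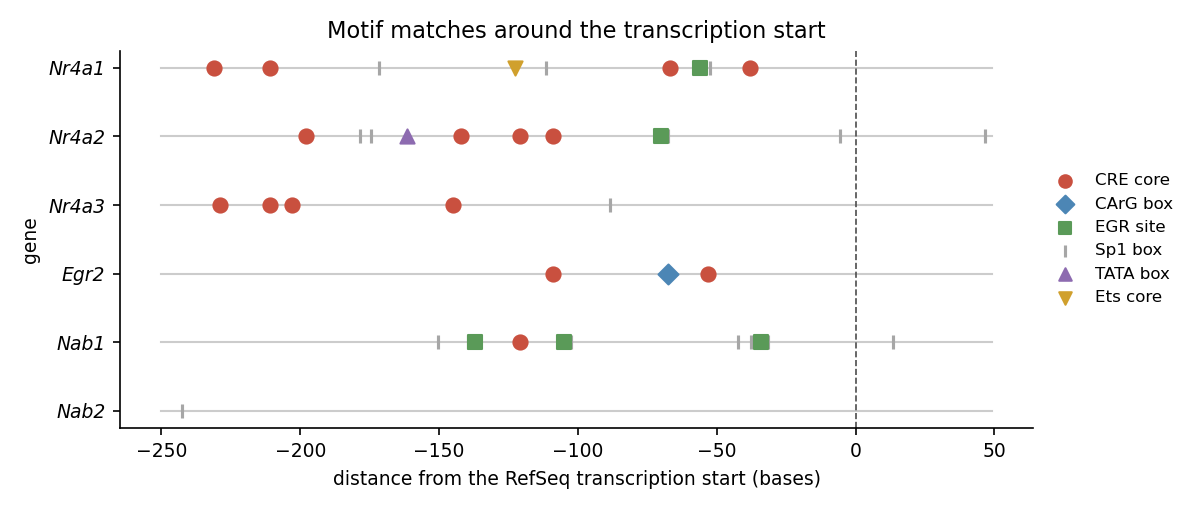
Motif matches by distance from the RefSeq start in bases, 1 window per gene, the third start for Egr2. Nr4a1, Nr4a2 and Nr4a3 each carry 4 CRE cores upstream of the start, and Nab1 carries 3 EGR sites.

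AU-rich pentamers, ATTTA, mark 3′ untranslated regions of many short-lived messages. All 8 genes held at least 2 in the coding transcript examined, and 69.3% of 9095 detected protein-coding genes held at least 1. The median was 2.57 per kb over the 8 genes and 1.35 per kb over the 9095. Nr4a1 was the densest, with 3 in 543 bases or 5.52 per kb, above 95.0% of those genes, and Nr4a3 the sparsest, at 1.62 per kb. The nonamer TTATTTATT occurred in Nab2 alone of the 8 genes and in 7.71% of all.

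The genes that act upstream were detected as a whole. All 9 kinases of the MAP kinase path were detected, at a median of 14.2 TPM. Map3k8, the kinase that links TLR4 to ERK, was the highest at 53.7 and 32.7 TPM, followed by the ERK kinase Map2k2 at 31.5 and 21.9 TPM. Rps6ka5, which phosphorylates CREB and histone H3, was the lowest at 2.98 and 1.62 TPM.

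All 10 upstream transcription factors were detected, at a median of 18.4 TPM. The MEF2 factors Mef2a, at 72.9 and 48.5 TPM, and Mef2c, at 74.99 and 44.7 TPM, were the highest and the Ets factor Elk3, at 6.49 and 4.63 TPM, the lowest. Of the other factors of GC-rich sites, Sp1 had 8.22 and 9.23 TPM and Wt1 had 0 reads in both libraries. Of 11 partners of NAB and NR4A proteins, 10 were detected. The chromatin remodeller Chd4, which NAB proteins recruit, had 193 and 97.5 TPM and the deacetylase Hdac1 87.4 and 62.5 TPM, while the retinoid receptor Rxrg had 0 reads in both. Between the libraries, 0 of the 9 kinases, 0 of the 10 factors and 0 of the 10 detected partners lay beyond 2-fold, where 9.02% of all genes did. Their median log2 ratios were -0.11, -0.17 and -0.13.

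**Figure D5:**
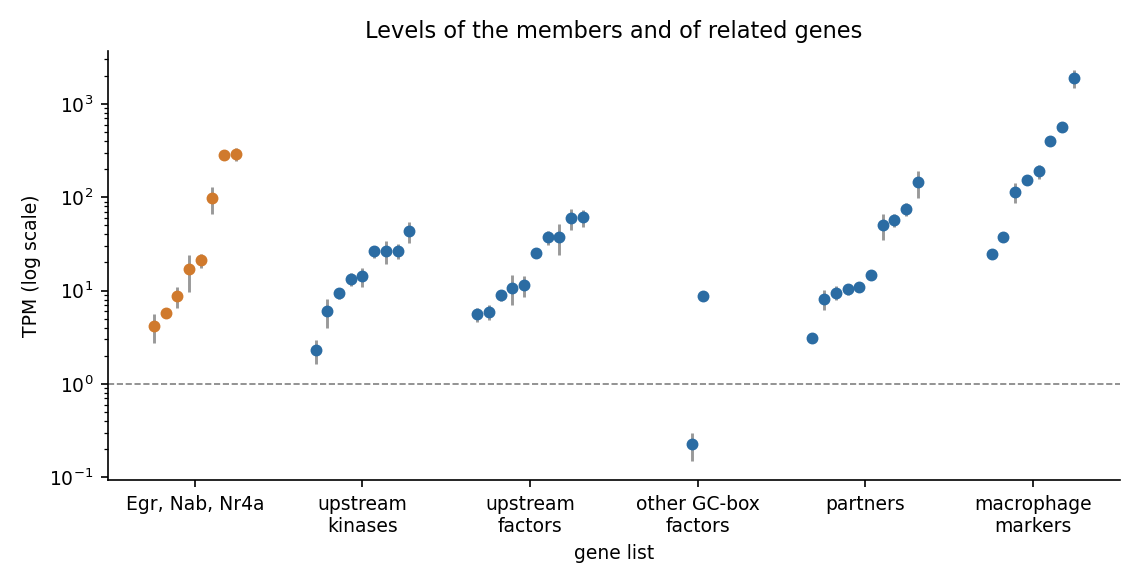
Mean TPM (points) and the span of the 2 libraries (bars) on a log scale for the 8 genes, related gene lists and macrophage markers, with a dashed line at 1 TPM. Values are of the gene table. Wt1 and Rxrg, at 0, are not drawn, and Nr4a1 and Egr1 lie above every gene of the upstream and partner lists in that table.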

How the data were processed

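Per the deposited text files, quantification used mm10 and GENCODE M21 and gave 1 gene table and 2 transcript tables a library. The authors deposited expected counts and TPM per gene, and expected counts, TPM and the percent of a gene's TPM per transcript, per the file headers. The second transcript table holds estimated counts and TPM that the authors derived from the reads directly, per the deposited text files. Credibility bounds and effective lengths are as deposited. The tools, and whether strand was used, were not given in the sources used here, and the headers resemble output of RSEM and kallisto.

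The 8 genes and all lists were chosen with earlier results of these data known. All 55536 annotated genes entered the scaling; other features, with 1.19% and 0.213% of expected counts, were left out. For library ratios, rounded expected counts were scaled by TMM (edgeR 4.0.16, R 4.3.3), with DESeq2 1.42.0 size factors as an alternative. The 2-fold limit was applied to genes averaging 50 counts or more. A single group allows no test of conditions. Named genes were the 8, the genes that overlap them, and the top 2 and the lowest gene of each list of 4 or more, by mean TPM (all genes of shorter lists). Markers of other cell types were named only where detected or where the tables differed. Genes with a like pattern were not named, since 2 libraries of 1 condition hold none. Promoters were from RefSeq and transcripts from GENCODE M21. The ratio script was tested on simulated data. Each member's counts, 128 to 18872 per library, set its counting precision.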

Additional observations from a re-analysis of the deposited data

How the results depend on the processing

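The 8 genes were detected at TPM of at least 1 in either library alone, and 7 of them at TPM of at least 5 in both. The gene beyond 2-fold was Nr4a2 under every count scaling tried, and 2 genes, Nr4a2 and Nab1, lay beyond it on the ratio of TPM. The count of all genes beyond 2-fold was 942, and it was 2083 with a mean of at least 10 counts, 3958 with at least 1 count in each library and 1777 on the ratio of TPM. The first 2 of these alternatives admit genes with fewer counts. The share of genes beyond 2-fold that were higher in replicate 2 was 57.9%. It was 61.6% with library size alone and 62.5% with DESeq2 size factors over genes averaging 50 counts or more. With DESeq2 size factors over all genes with counts in both libraries it was 46.7%, and on the ratio of TPM 10.7%. The cause was not tested. Scaling TPM to protein-coding genes outside mitochondria raises every value by construction, and gave 1235 ± 378 for Egr1 and 1270 ± 555 for Nr4a1 (SD, n = 2). The factor differed between the libraries, so the SD of Egr1 grew more than its mean, from 285 ± 25.5 TPM. By share of expected counts in place of TPM, the retained-intron share of Nr4a1 was 9.55% and that of Nab1 1.35%, and in the second transcript table they were 13.7% and 20.8%. No alternative was added after seeing the data. No paired analysis was possible because there is 1 group. With 2 libraries, no difference between them can be set against a spread.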
